A study of Mus musculus with 15 samples.

Results

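The cyclin-dependent kinase (CDK) inhibitors are a set of 8 mouse genes, Cdkn1a, Cdkn1b, Cdkn1c, Cdkn2a, Cdkn2b, Cdkn2c, Cdkn2d and Cdkn3. They were found by their gene names on the array, 8 of 31829 names, and all 8 were among the 25147 genes that were measured well enough to be tested. The 15 samples were total RNA of mouse embryonic stem (ES) cells transfected with the short hairpin sh4 or the control hairpin shCTR, each hybridised alone to a 1-colour Agilent array. There were 3 arrays of sh4 after 72 hours with 1 µM retinoic acid, 4 of shCTR after the same treatment, 4 of untreated sh4 and 4 of untreated shCTR. Retinoic acid is a derivative of vitamin A that makes ES cells differentiate. The labels call the replicates biological, state no target for sh4, no cell line and no vector for the hairpins, and give no culture time for untreated cells, so the effect of 72 hours of culture cannot be told apart from that of retinoic acid. The study is named after Phf19, a Polycomb-associated protein, and Phf19 was measured in all samples as a check of the hairpin.

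Progress through the cell cycle is driven by CDKs bound to cyclins, which phosphorylate the retinoblastoma (Rb) proteins and so release E2F transcription factors that turn on the genes of S phase. The Cip/Kip proteins p21 (Cdkn1a), p27 (Cdkn1b) and p57 (Cdkn1c) bind complexes of cyclins with several CDKs, whereas the Ink4 proteins p16 (Cdkn2a), p15 (Cdkn2b), p18 (Cdkn2c) and p19 (Cdkn2d) bind CDK4 and CDK6. Cdkn3 differs from both families, since it is a phosphatase that removes the activating phosphate from CDK2. The Cdkn2a and Cdkn2b genes lie side by side and are a textbook target of Polycomb repression, the modification of histone H3 at lysine 27, and Cdkn2a also encodes Arf, an activator of p53, in another reading frame.

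Levels below are scaled intensities, the array's processed signal after each array was set to the same 75th percentile, and they compare samples for one probe, not one gene with another. Changes are log2 differences ± standard error (SE) from limma, with p-values adjusted over all 25147 genes, and a gene "rose" or "fell" only where the adjusted p was under 0.05. Phf19 in sh4 stood at 54.4% of shCTR after retinoic acid and at 30.2% of shCTR in untreated cells. The arrays lay on 4 slides, with 73.8% to 79.4% of probes well above background and no saturated spot, and the brightest probe of every CDK inhibitor was well above background on all 15 arrays. A rating for evaluation by the scanner software fell on 3 arrays: shCTR replicate 2 and sh4 replicate 3, both untreated, and treated sh4 replicate 1.

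Cell type markers moved with the groups. The summed scaled intensity of 8 ES cell markers was 88490 to 108400 in sh4 and 163600 to 177400 in shCTR after retinoic acid, and 532600 to 661900 in sh4 and 559400 to 744800 in shCTR without it. All 8 were well above background on all arrays. After retinoic acid 5 of these ES cell markers were lower in sh4 than in shCTR and 1, Sox2, was higher. The sum of 8 trophoblast markers was 445000 to 543100 in sh4 and 490200 to 530500 in shCTR after retinoic acid. Between these treated groups 2 markers were higher in sh4 (Krt7 and Tfap2c) and 3 were lower (Eomes, Cdx2 and Hand1). In untreated cells the sum was 123400 to 140700 in sh4 against 10190 to 12960 in shCTR, and all 8 of them rose in untreated sh4. For 6 primitive endoderm markers the sum was 9983 to 10500 in sh4 and 31260 to 35260 in shCTR after retinoic acid, and 434 to 467.8 in sh4 and 1138 to 1258 in shCTR without it. For 8 fibroblast markers, which stand for feeder cells, it was 15000 to 15450 in sh4 and 11480 to 14210 in shCTR after retinoic acid, and 1663 to 1881 in sh4 and 4129 to 4706 in shCTR without it, with 4 of the 8 well above background on no untreated shCTR array. These 8 did not move together between the hairpins: in untreated sh4 3 rose (Dcn, Col3a1 and Lum) and 3 fell (Thy1, Pdgfrb and Col1a1), and after retinoic acid Col3a1 was higher and Thy1 lower in sh4. The part of these cell types in the results below was not tested. In such bulk RNA a change in the number of cells of a type and a change in RNA per cell cannot be told apart.

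Most of the CDK inhibitors rose with retinoic acid in both kinds of cell. In sh4 7 of the 8 rose and none fell, where 58.6% of all genes tested changed (27.1% rose and 31.5% fell). In shCTR 7 of 8 rose and 1 fell, where 62.3% of all genes changed (28.9% rose and 33.4% fell). The median log2 change of the 8 genes was 1.21 in sh4 and 0.82 in shCTR, beside −0.13 and −0.12 over all genes. The hairpin difference depended on the treatment for several of them. After retinoic acid 4 of 8 were higher in sh4 than in shCTR and none was lower, where 21.2% of all genes changed (10.9% rose and 10.3% fell). In untreated cells 1 rose and 2 fell, where 28.5% of all genes changed (14.3% rose and 14.2% fell). The test of the difference between these hairpin effects called 4 of 8, all positive, and 20.4% of all genes. The median hairpin difference of the 8 genes was 0.43 after retinoic acid and −0.11 in untreated cells, beside 0.04 and 0.02 over all genes. With the slide as a block, every call of a CDK inhibitor in the 5 comparisons remained and 1 was added, Cdkn2d in untreated cells. Over all genes that setting called more as well. It called 7053 against 5326 of 25147 for the hairpin after retinoic acid and 9056 against 7157 in untreated cells. For retinoic acid it called 17038 against 14734 in sh4 and 17706 against 15677 in shCTR, and for the interaction 6922 against 5129.

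**Figure D1:**
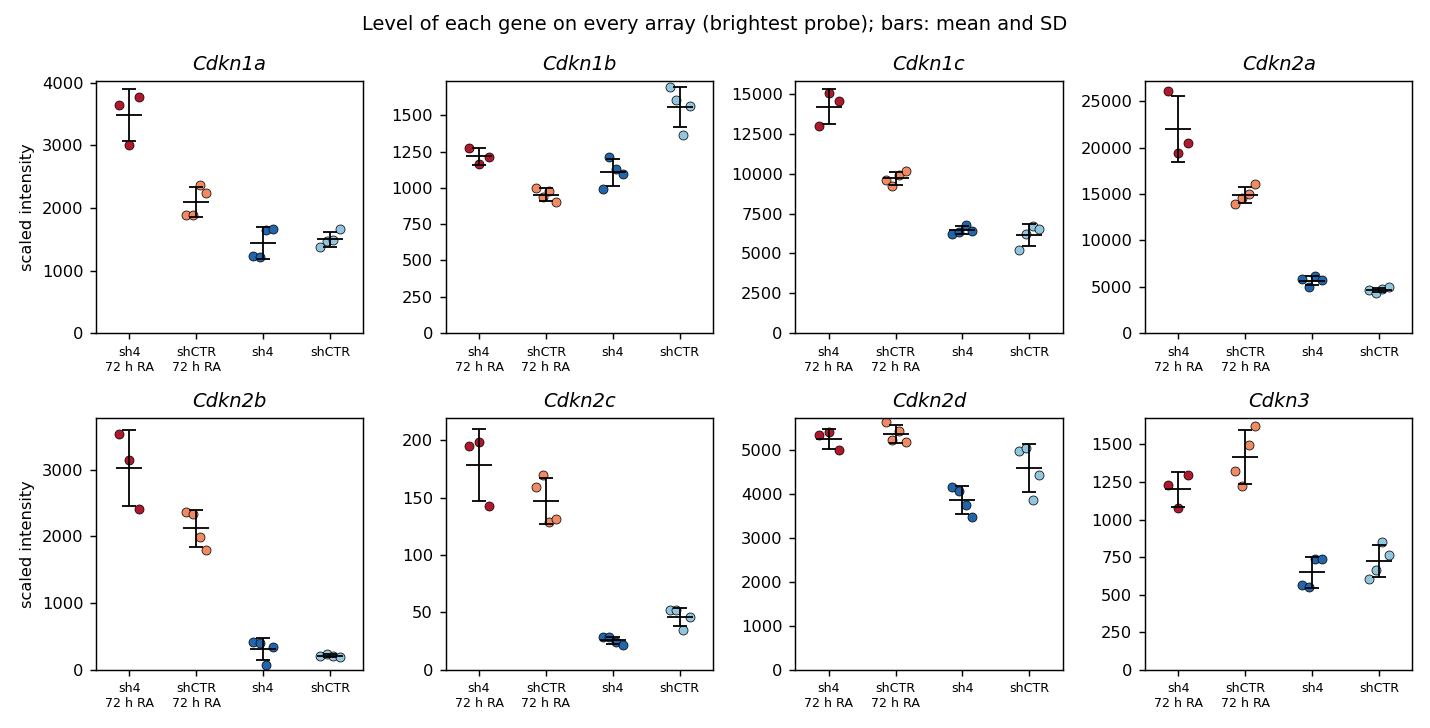
Scaled intensity of the brightest probe of each CDK inhibitor on every array, by group, with the mean and SD as bars (3 arrays of sh4 with retinoic acid, 4 in each other group). The y axes start at 0 and differ between panels. All genes but Cdkn1b and Cdkn2d sit higher in every array with retinoic acid than in every array without it, and Cdkn1b is highest in untreated shCTR.

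Cdkn1a encodes p21, the inhibitor through which p53 stops the cell cycle. Its scaled intensity was 3652, 3008 and 3783 in sh4 with retinoic acid and 1896, 1889, 2365 and 2247 in shCTR with retinoic acid. It was 1237, 1210, 1653 and 1667 in untreated sh4 and 1383, 1472, 1483 and 1658 in untreated shCTR. The treated sh4 arrays lay above all others and the treated shCTR arrays above all untreated ones, while the untreated hairpin groups overlapped. With retinoic acid Cdkn1a rose by 1.28 ± 0.14 in sh4 (adjusted p = 2.37e-06; within slides 1.19 to 1.56) and by 0.48 ± 0.13 in shCTR (adjusted p = 0.00477; within slides 0.36 to 0.67). The rise in shCTR was lost when arrays were scaled to their medians, which gave 0.31 with adjusted p = 0.10. Scaling to the medians also moved the median of all genes in that comparison to −0.29, against −0.12 with the 75th percentile. With the mean of the gene's probes the rise in shCTR was 0.90.

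Between the hairpins, Cdkn1a was higher in sh4 than in shCTR after retinoic acid, by 0.73 ± 0.14 (1.66-fold, adjusted p = 0.00186; within slides 0.67 to 0.95). In untreated cells the difference was −0.07 ± 0.13 (adjusted p = 0.802; within slides −0.28 to 0.16). The interaction, which is the hairpin difference after retinoic acid minus the one in untreated cells, was 0.80 ± 0.19 (adjusted p = 0.00839; within slides 0.52 to 1.11), where 10.3% of all genes had a positive interaction and 10.1% a negative one. The sum of ES cell markers was lowest in sh4 with retinoic acid, the group in which Cdkn1a was highest, and the part of this in the result was not tested.

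A second probe of Cdkn1a matches only the transcript that starts further upstream (chr17:29227986-29228045 in mm9, plus strand), whereas the brightest one lies in the part shared by both annotated transcripts (chr17:29237377-29237436, plus strand). The upstream probe averaged 87.7 ± 2.36 in sh4 and 54.5 ± 4.02 in shCTR after retinoic acid (SD, n = 3 and 4), and 29.5 ± 4.59 in sh4 and 22.3 ± 5.25 in shCTR without it (SD, n = 4 each). With retinoic acid it rose by 1.59 in sh4 and by 1.32 in shCTR, and it was higher in sh4 after retinoic acid by 0.69 (adjusted p = 0.0122). Its hairpin difference in untreated cells was 0.42 (adjusted p = 0.0665) and its interaction 0.26 (adjusted p = 0.551), so the interaction called for Cdkn1a rests on the brightest probe, and the mean of both probes gave 0.53. The 250 bases before each of the 2 starts, from RefSeq on GRCm38.p6, are shown because the probes read transcripts from different starts. They lie at chr17:29090729-29090978 (upstream start) and chr17:29093519-29093768 (main start), both on the plus strand. Capitals mark a p53 response element in the first, and every CG dinucleotide in the second.
Cdkn1a, upstream start: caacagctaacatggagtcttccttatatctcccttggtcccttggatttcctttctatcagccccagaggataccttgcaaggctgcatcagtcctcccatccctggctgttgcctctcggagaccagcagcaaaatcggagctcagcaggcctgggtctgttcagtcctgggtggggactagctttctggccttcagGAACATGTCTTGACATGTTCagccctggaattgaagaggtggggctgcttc
Cdkn1a, main start: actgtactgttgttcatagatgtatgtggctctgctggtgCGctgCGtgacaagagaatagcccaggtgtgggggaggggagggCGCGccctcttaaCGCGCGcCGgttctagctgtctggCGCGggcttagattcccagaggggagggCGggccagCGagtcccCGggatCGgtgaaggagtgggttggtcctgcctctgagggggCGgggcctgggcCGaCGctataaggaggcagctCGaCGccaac
The element is a pair of half-sites with no gap between them, searched on both strands with at most 1 letter off the consensus, a tolerance set after the sequence was seen. It begins 51 bases before the upstream start, and such a match was in 25 of 32851 windows of the same length (0.0761%). Because of how the tolerance was set, this share does not measure how unusual the match is. With no letter off, the pair was in 3 of the 32851 windows and not in this one. The upstream window has 2 CG dinucleotides and the main one 19, beside a median of 6 over all windows.

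Because p21 is the best known p53 target, 19 genes of the p53 axis were set beside it. The counts of this list and of those below stand beside the shares of all genes given above for each comparison. In untreated cells 14 of 19 rose in sh4 and 2 fell. Perp, a p53 target of cell junctions, rose by 1.70 ± 0.073, and Btg2, which restrains proliferation, by 1.04 ± 0.059, while the stress cytokine Gdf15 fell by 0.89 ± 0.14 and Sesn1 by 0.66 ± 0.083. After retinoic acid 13 of 19 were higher in sh4 and none lower, with Perp (1.38) and Btg2 (0.83) again leading, and the median of the list was 0.41 after retinoic acid and 0.39 in untreated cells. With retinoic acid the list had 8 up and 7 down in sh4 and 9 up and 8 down in shCTR. The death receptor gene Fas rose by 3.03 in sh4 and 3.55 in shCTR and the kinase gene Plk2 by 1.42 and 1.68, whereas Gdf15 fell by 2.60 and 3.58. Trp53, the gene of p53 itself, fell by 1.14 ± 0.12 in sh4 and by 1.42 ± 0.11 in shCTR. Of the list 3 had a positive and 1 a negative interaction, as did 10.3% and 10.1% of all genes. Gdf15 (0.98 ± 0.21) and Sesn1 (0.61 ± 0.12) were highest and the growth arrest gene Gadd45a (−0.57 ± 0.15) lowest.

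Cdkn1b encodes p27, which holds cells in a resting state and is removed through the ubiquitin ligase subunit Skp2. It was the only CDK inhibitor of the 8 to fall with retinoic acid, and it did so in shCTR. Its scaled intensity was 1278, 1162 and 1210 in sh4 and 997.1, 940.7, 976.6 and 901.9 in shCTR with retinoic acid. Without it the values were 990.8, 1211, 1132 and 1094 in sh4 and 1695, 1604, 1367 and 1567 in shCTR. Untreated shCTR was highest on every array, and the treated and untreated sh4 arrays overlapped. With retinoic acid Cdkn1b fell by 0.70 ± 0.079 in shCTR (adjusted p = 2.85e-06; within slides −0.80 to −0.48), and in sh4 its change was 0.14 ± 0.085 (adjusted p = 0.187).

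The hairpin thus had opposite signs on Cdkn1b in the 2 conditions. In sh4 it was higher than in shCTR after retinoic acid, by 0.35 ± 0.085 (1.27-fold, adjusted p = 0.00963; within slides 0.30 to 0.36). This call was lost without sh4 replicate 1 with retinoic acid (0.31, adjusted p = 0.0503) and without the 3 arrays rated for evaluation (0.31, adjusted p = 0.0756). In untreated cells it was lower in sh4, at 71.1% of shCTR (−0.49 ± 0.079, adjusted p = 0.00031; within slides −0.77 to −0.27). The interaction of 0.84 ± 0.12 (adjusted p = 0.000173; within slides 0.58 to 1.13) passed in each of the 15 fits that left out 1 array. In untreated sh4, the group with less Cdkn1b, the trophoblast markers rose, and their part was not tested. A second probe of Cdkn1b was well above background on 0 of 15 arrays and was not tested.

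A list of 7 genes held parts of ubiquitin ligases that turn over p21, p27 or, in the case of Fbxw7, cyclin E. Of these, 2 rose in untreated sh4 and none fell, namely Skp2 (0.32 ± 0.10) and its cofactor Cks1b (0.25 ± 0.078). After retinoic acid Fbxw7, the cyclin E receptor, was the 1 gene higher in sh4 (0.52 ± 0.15) and none was lower. With retinoic acid 3 rose and 1 fell in each hairpin. Fbxw7 rose by 0.79 in sh4 and 0.47 in shCTR and the scaffold gene Cul1 by 0.55 and 0.52, while Dtl, part of a ligase for p21, fell by 0.66 and 0.81. No gene of this list had an interaction past the threshold.

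Cdkn1c encodes p57, an imprinted gene expressed from the maternal copy that limits growth of the embryo and placenta. Its scaled intensity was 12970, 15080 and 14590 in sh4 and 9631, 9208, 9926 and 10150 in shCTR with retinoic acid. Without it the values were 6210, 6328, 6792 and 6431 in sh4 and 5185, 6248, 6745 and 6525 in shCTR. The order was sh4 with retinoic acid, then shCTR with retinoic acid, with no overlap, and then the 2 untreated groups, which overlapped. With retinoic acid Cdkn1c rose by 1.14 ± 0.089 in sh4 (adjusted p = 9.18e-08) and by 0.66 ± 0.083 in shCTR (adjusted p = 8.24e-06), within slides by 1.06 to 1.25 and 0.56 to 0.89. After retinoic acid it was higher in sh4 by 0.54 ± 0.089 (1.46-fold, adjusted p = 0.000631; within slides 0.43 to 0.71), and in untreated cells the difference was 0.07 ± 0.083 (adjusted p = 0.669). The interaction was 0.48 ± 0.12 (adjusted p = 0.0131; within slides 0.17 to 0.69), and with normexp background correction it was 0.43 and missed the threshold (adjusted p = 0.0888). The 1 probe lies at chr7:150644753-150644812 (mm9, minus strand).

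Cdkn1c sits in a cluster of imprinted genes, 8 of which were measured, and they moved in both directions. With retinoic acid 1 rose and 2 fell in sh4, and 1 rose and 4 fell in shCTR. Phlda2, a placental growth regulator, fell by 1.21 ± 0.13 in sh4 and by 1.54 ± 0.12 in shCTR. Ascl2, a transcription factor of trophoblast, fell by 1.17 ± 0.10 in sh4 and by 1.25 ± 0.096 in shCTR. The sum of the 8 trophoblast markers was higher with retinoic acid, but they did not all move alike. In sh4 5 of them rose and 3 fell (Cdx2, Tfap2c and Eomes), and in shCTR 7 rose and 1 fell (Tfap2c). The transporter gene Slc22a18 changed by −0.32 ± 0.13 in sh4 (adjusted p = 0.0532) and fell by 1.06 ± 0.12 in shCTR. Kcnq1, a potassium channel gene, rose in both, by 1.00 ± 0.081 in sh4 and 0.35 ± 0.075 in shCTR, and like Cdkn1c it had a positive interaction (0.65 ± 0.11, adjusted p = 0.000929). The noncoding RNA Kcnq1ot1, read from the paternal copy and needed to silence the cluster there, changed by −0.47 ± 0.21 in sh4 (adjusted p = 0.0694) and fell by 0.53 ± 0.19 in shCTR (adjusted p = 0.0271). It lies antisense within Kcnq1. Between the hairpins 2 of the 8 rose and none fell in sh4 after retinoic acid, and 1 rose and 2 fell in untreated sh4. Cd81, a membrane protein gene, was higher in sh4 after retinoic acid (0.33) and without it (0.23). Kcnq1 was higher in sh4 after retinoic acid (0.32, adjusted p = 0.0121) and lower without it (−0.33, adjusted p = 0.00475). Slc22a18 was lower in untreated sh4 (−0.49, adjusted p = 0.00769) and had a positive interaction (0.74 ± 0.18, adjusted p = 0.01). Nap1l4 and Tssc4 passed the threshold in none of the 5 comparisons, with changes of 0.02 to 0.17 and −0.17 to 0.20.

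**Figure D2:**
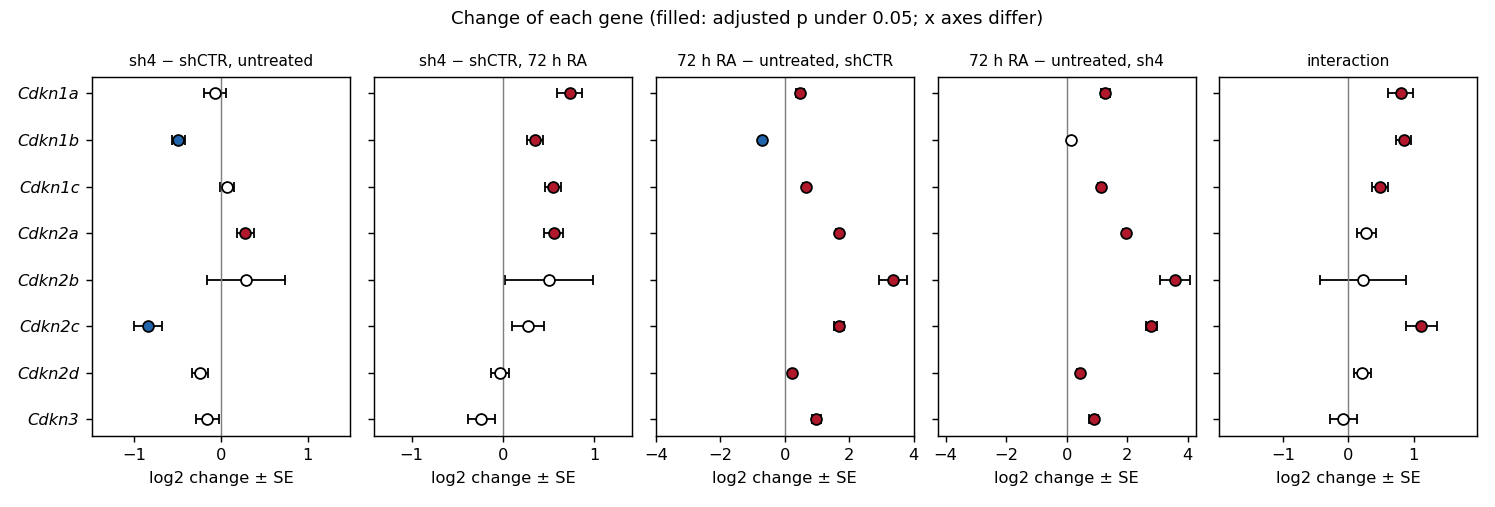
Log2 change ± SE of each CDK inhibitor in the 5 comparisons, from limma; filled points passed an adjusted p of 0.05, red for higher and blue for lower in the first-named group, and open points did not pass. The x axes differ between panels. With retinoic acid all but Cdkn1b in shCTR (−0.70) lie right of 0, and the interaction is positive and called for Cdkn1a, Cdkn1b, Cdkn1c and Cdkn2c.

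Cdkn2a and Cdkn2b, the neighbours on chromosome 4, both rose strongly with retinoic acid. The brightest Cdkn2a probe (chr4:88920405-88920464, mm9, minus strand) matches both annotated transcripts, so the RNAs of p16 and Arf cannot be told apart. Its scaled intensity was 26120, 19390 and 20570 in sh4 and 13980, 14600, 14960 and 16060 in shCTR with retinoic acid. In untreated cells it was 5811, 4972, 6190 and 5703 in sh4 and 4606, 4357, 4750 and 4932 in shCTR. The 4 groups did not overlap, although the lowest untreated sh4 array stood close to the highest untreated shCTR array. With retinoic acid Cdkn2a rose by 1.95 ± 0.10 in sh4 (3.86-fold, adjusted p = 1.77e-09) and by 1.68 ± 0.096 in shCTR (3.20-fold, adjusted p = 2.84e-09), within slides by 1.73 to 2.17 and by 1.60 to 1.74.

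After retinoic acid Cdkn2a was also higher in sh4 than in shCTR, by 0.55 ± 0.10 (1.47-fold, adjusted p = 0.00172; within slides 0.41 to 0.90). In untreated cells it was higher in sh4 by 0.28 ± 0.096 (adjusted p = 0.0452; within slides 0.19 to 0.38), a call at the edge of the threshold. It was lost in 12 of the 15 fits that left out 1 array (adjusted p up to 0.122), all but those without sh4 replicates 1 or 3 with retinoic acid or untreated sh4 replicate 2, and under 6 other settings, among them quantile normalization (0.0502) and the mean of the gene's probes (0.201). The other Cdkn2a probe rose by 1.90 in sh4 and 1.44 in shCTR with retinoic acid, was higher in sh4 after it by 0.54 (adjusted p = 0.00589), and differed by 0.08 in untreated cells (adjusted p = 0.725). The interaction of the brightest probe was 0.27 ± 0.14 (adjusted p = 0.227).

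Cdkn2b had the largest changes of the 8 with retinoic acid. Its brightest probe (chr4:88952276-88952335, mm9, minus strand) read 3541, 3142 and 2415 in sh4 and 2369, 2339, 1992 and 1792 in shCTR with retinoic acid. In untreated cells it read 421.2, 397.4, 68.95 and 343.1 in sh4 and 204.4, 237.2, 200.2 and 184 in shCTR. Every treated array stood above every untreated one, and untreated sh4 replicate 3, one of the arrays rated for evaluation, stood apart from the other sh4 arrays. Cdkn2b rose by 3.58 ± 0.48 in sh4 (11.9-fold, adjusted p = 2e-05) and by 3.36 ± 0.45 in shCTR (10.3-fold, adjusted p = 1.49e-05). Within slides the rise was 2.98 to 5.13 in sh4 and 3.28 to 3.54 in shCTR, and without sh4 replicate 3 it was 2.96 in sh4.

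That 1 array decides the hairpin result for Cdkn2b. With all arrays the difference in untreated cells was 0.29 ± 0.45 (adjusted p = 0.751), and without sh4 replicate 3 it was 0.91 (adjusted p = 0.000486). After retinoic acid it was 0.51 ± 0.48 (adjusted p = 0.576), and once the spread was estimated without that array the same 0.51 had adjusted p = 0.0268. The other Cdkn2b probe averaged 379 ± 40.2 in sh4 and 291.9 ± 33.7 in shCTR with retinoic acid (SD, n = 3 and 4), and 53.2 ± 4.68 in sh4 and 32.4 ± 3.17 in shCTR without it (SD, n = 4 each). On that probe sh4 replicate 3 did not stand apart, with a range of 47.2 to 57.0 over the untreated sh4 arrays. It was higher in sh4 by 0.38 ± 0.11 after retinoic acid (adjusted p = 0.0313) and by 0.71 ± 0.105 in untreated cells (adjusted p = 0.000154), and its interaction was −0.34 (adjusted p = 0.166). The interaction of the brightest probe was 0.22 ± 0.66 (adjusted p = 0.904), and without sh4 replicate 3 it was −0.40 (adjusted p = 0.226).

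**Figure D3:**
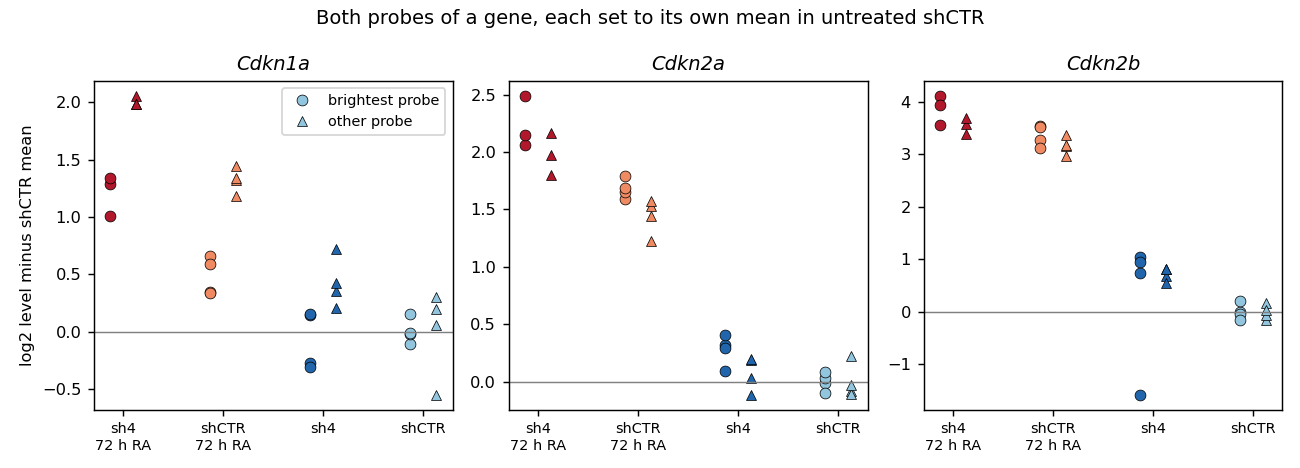
Log2 level on every array for both probes of Cdkn1a, Cdkn2a and Cdkn2b, each probe set to its own mean in untreated shCTR; circles are the brightest probe and triangles the other one, and the y axes differ. The circle far below the rest in the Cdkn2b panel is untreated sh4 replicate 3 at 68.95, while the 4 triangles of that group lie together.

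The promoters of this locus are shown because both of its genes rose together and because Cdkn2a has 2 starts. The 250 bases before each start, from RefSeq on GRCm38.p6 and on the minus strand, are printed with each CG dinucleotide, the site of DNA methylation, in capitals. The window at chr4:89294620-89294869 precedes the upstream Cdkn2a start, that of Arf, the one at chr4:89282193-89282442 the inner start, that of p16, and the one at chr4:89311033-89311282 the start of Cdkn2b.
Cdkn2a, upstream start: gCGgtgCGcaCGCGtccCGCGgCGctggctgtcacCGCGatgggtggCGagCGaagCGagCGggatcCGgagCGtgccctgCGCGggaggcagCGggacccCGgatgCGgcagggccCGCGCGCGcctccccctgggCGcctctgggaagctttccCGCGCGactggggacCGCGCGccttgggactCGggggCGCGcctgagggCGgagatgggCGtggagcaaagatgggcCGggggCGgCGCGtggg
Cdkn2a, inner start: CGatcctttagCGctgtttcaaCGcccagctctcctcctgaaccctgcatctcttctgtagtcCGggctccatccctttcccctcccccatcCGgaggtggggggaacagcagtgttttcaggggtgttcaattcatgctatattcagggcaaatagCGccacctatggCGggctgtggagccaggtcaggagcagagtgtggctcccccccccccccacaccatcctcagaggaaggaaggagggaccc
Cdkn2b: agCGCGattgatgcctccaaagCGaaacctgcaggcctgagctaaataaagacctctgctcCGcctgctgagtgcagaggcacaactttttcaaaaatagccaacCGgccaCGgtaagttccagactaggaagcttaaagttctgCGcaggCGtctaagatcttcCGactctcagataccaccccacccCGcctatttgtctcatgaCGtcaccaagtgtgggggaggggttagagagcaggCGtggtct
They hold 40, 7 and 12 CG dinucleotides in this order, and 98.7% of 32851 such windows hold fewer than the first, 53.7% fewer than the second and 66.5% fewer than the third. AGGTCA, the half-site of retinoic acid receptors, was searched on both strands and found in the inner Cdkn2a window, 67 bases before the start, and in 4607 of all 32851 windows. Its direct repeat with a spacer of 5 bases was in none of these windows and in 3 of the whole table. Windows were found for 7 of the 8 genes.

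Mtap, a methionine salvage gene beside Cdkn2a and Cdkn2b, did not pass the threshold in any of the 5 comparisons, and its change was 0.06 in sh4 and 0.07 in shCTR with retinoic acid. Among 11 Polycomb proteins and demethylases known to act on this locus, 1 was higher and 2 were lower in sh4 after retinoic acid, and 3 were lower and none higher in untreated sh4. Besides Phf19 itself, Suz12, a core subunit of Polycomb repressive complex 2, was lower in sh4 by 0.39 ± 0.078 after retinoic acid and by 0.56 ± 0.072 in untreated cells, and Rnf2, a ubiquitin ligase of the other Polycomb complex, was higher by 0.25 after retinoic acid. With retinoic acid 4 rose and 6 fell in sh4, and 3 rose and 5 fell in shCTR. Bmi1, a classical repressor of Cdkn2a, rose by 1.84 ± 0.099 in sh4 and by 1.75 ± 0.091 in shCTR. Cdkn2a rose in the same samples, and a link between them was not tested. Cbx8 rose by 3.85 and 2.93, and Eed, which reads the Polycomb mark, fell by 1.49 in sh4 and 1.59 in shCTR. Phf19 itself fell by 1.31 in sh4 and fell by 2.16 in shCTR, with an interaction of 0.85 ± 0.13 (adjusted p = 0.000352). Kdm6b, a demethylase that removes the mark, had a positive interaction of 0.57 ± 0.15 (adjusted p = 0.0153).

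Transcription factors known to act on the inhibitors moved in both directions. Of 15, 8 rose and 4 fell in sh4 with retinoic acid, and 8 rose and 3 fell in shCTR. Tbx2, a repressor of Cdkn2a and Cdkn1a, rose by 7.39 ± 0.21 in sh4 and by 6.30 ± 0.19 in shCTR, and Klf4, an activator of Cdkn1a, fell by 2.74 in each. Klf6, another activator of Cdkn1a, rose by 0.89 in sh4 and by 2.48 in shCTR and had an interaction of −1.59 ± 0.10. Zbtb17 (Miz1), through which Myc holds down Cdkn2b, rose by 1.64 in sh4 and by 1.11 in shCTR. Myc fell by 0.68 ± 0.26 in sh4 and by 0.98 ± 0.24 in shCTR. Mycn fell by 2.93 in sh4, and in shCTR its change was −0.16 (adjusted p = 0.279). Between the hairpins 2 were higher and 5 lower in sh4 after retinoic acid, with Tbx2 (0.72) and Smad3 (0.41) highest and Mycn (−1.57) and Klf4 (−1.06) lowest. In untreated sh4, 4 were higher and 2 lower, with Mycn (1.197) and Id1 (0.88) highest and Tbx3 (−1.15) and Klf4 (−1.06) lowest. Mycn thus had an interaction of −2.77 ± 0.18, opposite in sign to those of Cdkn1a, Cdkn1b and Cdkn1c, while Tbx2 had one of 1.09 ± 0.28 and Tbx3 one of 0.79 ± 0.10.

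Cdkn2c encodes p18, and its 1 probe (chr4:109333508-109333567, mm9, minus strand) gave a low signal. Its scaled intensity was 194.9, 198.9 and 142.4 in sh4 and 158.9, 169.4, 128.9 and 131.2 in shCTR with retinoic acid. In untreated cells it was 28.24, 28.26, 23.75 and 21.71 in sh4 and 51.65, 51.99, 34.63 and 45.62 in shCTR. The untreated sh4 arrays were lowest and did not overlap with shCTR, while the treated groups overlapped. Cdkn2c rose by 2.80 ± 0.17 in sh4 (6.98-fold, adjusted p = 7.06e-09; within slides 2.58 to 2.82) and by 1.69 ± 0.16 in shCTR (3.22-fold, adjusted p = 4.65e-07; within slides 1.52 to 1.90).

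In untreated cells Cdkn2c in sh4 stood at 55.8% of shCTR (−0.84 ± 0.16, adjusted p = 0.00111; within slides −1.07 to −0.54). After retinoic acid the difference was 0.27 ± 0.17 (adjusted p = 0.329), and the interaction was 1.12 ± 0.23 (adjusted p = 0.00376; within slides 0.69 to 1.17). The size depended on the background correction: with normexp the rise with retinoic acid was 1.39 in sh4 and 0.72 in shCTR, the hairpin difference in untreated cells −0.43 and the interaction 0.67. In the authors' log2 values these were 1.33, 0.77, −0.32 and 0.56. These smaller values passed the threshold as well. The lower level in untreated sh4 went together with the higher trophoblast markers there, and their part was not tested.

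Cdkn2d encodes another p19, unrelated to Arf, and its changes were small. It ranged over 5002 to 5418 in sh4 and 5202 to 5636 in shCTR with retinoic acid, and over 3477 to 4175 in sh4 and 3877 to 5053 in shCTR without it. The treated arrays stood above the untreated ones within each hairpin, and the hairpin groups overlapped under each treatment. With retinoic acid it rose by 0.45 ± 0.095 in sh4 (adjusted p = 0.00105; within slides 0.36 to 0.41) and by 0.24 ± 0.088 in shCTR (adjusted p = 0.0318; within slides 0.05 to 0.49). The rise in shCTR was lost with median scaling (0.06, adjusted p = 0.477), with normexp (adjusted p = 0.0617), in a fit of the compared groups alone (adjusted p = 0.0625) and without any one of 4 arrays, namely shCTR replicates 1 and 3 with retinoic acid and untreated shCTR replicates 3 and 4 (adjusted p up to 0.104), and it was 0.38 with quantile normalization. The hairpin difference was −0.03 ± 0.095 after retinoic acid (adjusted p = 0.895) and −0.24 ± 0.088 in untreated cells (adjusted p = 0.056). With the slide as a block the value in untreated cells passed (adjusted p = 0.0178; within slides −0.35 to −0.05), as it did with median scaling (0.0183), with a filter for probes well above background on all arrays (0.0472), and without untreated sh4 replicate 1 (0.0448) or shCTR replicate 3 (0.00881). The interaction did not pass (0.21 ± 0.13, adjusted p = 0.331).

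Cdkn3, the CDK2 phosphatase, rose with retinoic acid in both hairpins. It ranged over 1074 to 1297 in sh4 and 1224 to 1624 in shCTR with retinoic acid, and over 551.5 to 740.6 in sh4 and 607 to 849.3 in shCTR without it. Treated and untreated arrays did not overlap, and the hairpin groups overlapped under both treatments. The rise was 0.90 ± 0.15 in sh4 (1.86-fold, adjusted p = 0.000127; within slides 0.81 to 1.12) and 0.98 ± 0.14 in shCTR (1.97-fold, adjusted p = 2.52e-05; within slides 0.82 to 1.13). The hairpin difference was −0.24 ± 0.15 after retinoic acid (adjusted p = 0.333) and −0.16 ± 0.14 in untreated cells (adjusted p = 0.496), and the interaction was −0.08 ± 0.20 (adjusted p = 0.886). The probe lies at chr14:47386895-47386954 (mm9, plus strand).

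The kinases and cyclins on which these proteins act fell for the most part with retinoic acid. Of 12 cyclins and CDKs measured, 2 rose and 9 fell in sh4, and 1 rose and 9 fell in shCTR, with medians of −0.47 and −0.56. Of all genes 31.5% fell in sh4 and 33.4% in shCTR, with medians of −0.13 and −0.12. The D cyclins, partners of CDK4 and CDK6, parted. Ccnd2 rose by 2.86 ± 0.15 in sh4 and by 2.04 ± 0.14 in shCTR. Ccnd1 fell by 3.18 ± 0.11 in sh4 and by 3.63 ± 0.098 in shCTR, and Ccnd3 fell by 0.57 and 1.06. Cdk6 fell by 1.07 ± 0.26 in sh4 and by 0.80 ± 0.24 in shCTR. Ccna1, the germ cell form of cyclin A, rose by 0.26 ± 0.11 in sh4, a call at the edge of the threshold (adjusted p = 0.0498). In shCTR its change was −0.01 (adjusted p = 0.948). Between the hairpins, Ccnd1 was higher (0.62) and Ccnd2 and Cdk2 lower (−0.75 and −0.44) in sh4 after retinoic acid, and in untreated sh4 Cdk6 was higher (0.92 ± 0.24) and Ccnd2 and Ccnd3 lower (−1.57 and −0.33). Of the 12 genes 3 had a positive interaction and none a negative one, Ccnd2 (0.82 ± 0.21), Ccnd3 (0.49 ± 0.11) and Ccnd1 (0.45 ± 0.14, adjusted p = 0.0421).

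Downstream, 15 of 18 S phase genes under E2F control fell in sh4 and 13 fell in shCTR with retinoic acid, with medians of −0.74 and −0.91. The polymerase gene Pola1 fell by 1.17 in sh4 and 1.43 in shCTR and the licensing factor gene Cdt1 by 1.16 and 1.38. Between the hairpins 1 of 18 was lower in sh4 after retinoic acid (Cdc45, −0.20) and 2 were lower in untreated sh4 (Mcm2, −0.31, and Rrm2, −0.20). None was higher, and 21.2% and 28.5% of all genes changed in these comparisons. Mcm2 was the 1 gene of this list with an interaction past the threshold (0.44 ± 0.15). Of 13 genes of the Rb family and E2F, 5 rose and 6 fell in sh4 and 5 rose and 7 fell in shCTR with retinoic acid. E2f6, a repressive E2F, rose by 1.09 in each, Rb1 by 0.44 in sh4 and 0.41 in shCTR, and E2f7 by 0.43 in sh4 and 0.98 in shCTR. Of the activator genes, E2f1 fell by 1.30 in sh4 and fell by 1.55 in shCTR, and E2f2 fell by 1.13 in sh4 and fell by 2.04 in shCTR. The other activator, E2f3, which was named after its values were seen, rose by 0.22 in sh4 and by 0.48 in shCTR. Rb1 was higher in sh4 after retinoic acid (0.42 ± 0.060), as was E2f5 (0.34 ± 0.083), where 4 of the 13 rose and none fell. In untreated sh4 5 rose and 2 fell, with E2f7 (0.69) and E2f5 (0.42) highest and E2f2 (−0.63) and Rbl1 (−0.41) lowest. Rb1 was higher in untreated sh4 as well (0.39 ± 0.055). The interaction was positive for E2f2 (0.91 ± 0.10) and Tfdp2 (0.66 ± 0.20) and negative for E2f7 (−0.56 ± 0.087).

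**Figure D4:**
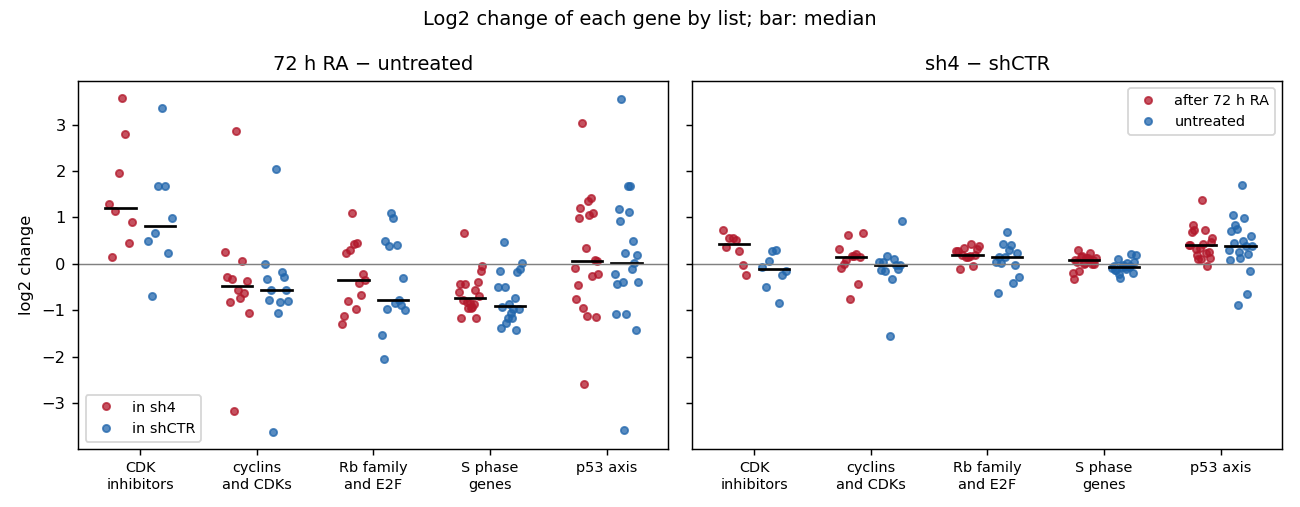
Log2 change of each gene, 1 point a gene, for the CDK inhibitors and 4 lists of genes of the same pathway, with the median as a bar; left, retinoic acid against untreated in sh4 and shCTR, and right, sh4 against shCTR after retinoic acid and untreated. With retinoic acid the medians of the CDK inhibitors (1.21 and 0.82) lie above 0 and those of the cyclins and CDKs (−0.47 and −0.56) and S phase genes (−0.74 and −0.91) below it.

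The genes whose profile over the 15 arrays was most like that of each CDK inhibitor were sought among the 21401 genes whose probe was well above background on every array. The correlations are a description: the arrays share slides and fall into treated and untreated sets. Cdkn2a was closest to Vezf1 and Rfk (r = 0.997 each) and Hs6st1 (0.994). Cdkn2b was closest to E2f6 (0.992), the repressive E2F named above, followed by Fam18a and Traf3 (0.984 each). These values include the low reading of 68.95 for its brightest probe on untreated sh4 replicate 3. The closest genes without that array were not sought. For Cdkn1a the closest genes were Atp6v0e2 and Atl1 (0.978 each) and Ctnnd2 (0.97), and for Cdkn1c Srrm3 (0.981), Chd3 (0.98) and Srr (0.979). Cdkn2c was closest to Brp44 (0.992), Scd2 (0.99) and Vstm2b (0.988), Cdkn2d to Caskin1 (0.96) and Boc (0.956), and Cdkn3 to Nfe2l1 (0.995) and Tmem111 (0.994). Cdkn1b had the loosest neighbours, Meaf6 (0.941), Phyhd1 (0.931) and Gpsm3 (0.928).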

How the data were processed

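Each sample's RNA was read on an Agilent array in 1 colour. The deposited intensities are the processed signal of Feature Extraction 10.7.3.1, which, per the file headers, subtracts a spatial background and applies no scaling across arrays. Probe positions are those of the files, on mm9. Log2 values of the same arrays were deposited by the authors as well. The sources used here do not state how they were made, and they entered one alternative.

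Of 43020 non-control spots, spots flagged by the software as non-uniform or as outliers among copies were dropped, and the rest were averaged into 39429 probes. The log2 signal was set against each array's 75th percentile, and probes had to exceed background clearly on 3 or more arrays of some group. Each gene was read by its retained probe with the highest mean processed signal. With limma 3.58.1 in R 4.3.3, and version 1.17.8 of the data.table package, 1 model of 4 groups over all 15 arrays gave 5 comparisons, with two-sided moderated tests and Benjamini-Hochberg adjustment over 25147 genes (threshold 0.05). For 81 tested genes at least 1 array had no unmarked spot and was dropped from that gene's fit. The number of arrays limits the precision. The fit was tested on simulated data.

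The 8 genes, the lists and the tests were chosen with earlier results of these data known. Every member, every probe of it and every gene beside Cdkn1c or Cdkn2a was named, and of each other list the 2 largest rises and 2 largest falls past the threshold in each comparison, except for an item that is not reported here. Of 150 listed genes and markers, 3 were matched by accession and 1 was not found. The p-values measure the spread between the replicates as labelled. The slide was tried as a block, and within-slide values use 3 slides wherever sh4 with retinoic acid enters, since slide 4 held none. In their deviations from group means, the 15 pairs of arrays with 1 replicate number on 1 slide correlated at 0.116 to 0.578, the 6 pairs of different numbers on 1 slide at 0.408 to 0.606, and the 6 pairs of 1 number on different slides at −0.532 to 0.558. The 57 pairs that shared neither number nor slide correlated at −0.613 to 0.473. Every pair on 1 slide thus had a positive correlation, although the ranges overlap. Number and slide part only through sh4 replicates 3 and 4 with retinoic acid, so whether the numbers pair the samples cannot be settled here. Alternatives were quantile normalization, median scaling, normexp background correction (offset 50), other filters, the mean of a gene's probes, fits of the compared groups alone, and leaving out arrays.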

Additional observations from a re-analysis of the deposited data

Results flagged for a closer look

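Within the untreated sh4 group, the brightest Cdkn2b probe read 68.95 on replicate 3, and the other 3 arrays lay between 343.1 and 421.2. On log2 levels replicate 3 stood at −4.601 and the other arrays at −2.286 to −1.99. Its gap to the nearest array on that scale was 0.887 of the group's range, above Dixon's 95% critical value for 4 samples. The ratio depends on the log2 scale and does not hold for the scaled intensities. This was the 1 such gap among 24 groups of 4 arrays that were checked, and chance alone gives about 1 in 20. The array is one of the 3 rated for evaluation, and the other Cdkn2b probe read 47.2 to 57.0 over the 4 arrays of the group. A link between the rating and this spot was not tested.

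The hairpin difference was called as dependent on the treatment for 4 genes, by the interaction term of the limma fit on the brightest probe. The interaction was 0.84 for Cdkn1b (adjusted p = 0.000173), 1.12 for Cdkn2c (adjusted p = 0.00376), 0.80 for Cdkn1a (adjusted p = 0.00839) and 0.48 for Cdkn1c (adjusted p = 0.0131). It was positive within 3 of 3 slides for each of these 4 genes, on the same arrays as the fit. For the second probe of Cdkn1a it was 0.26 (adjusted p = 0.551), and for Cdkn1c it missed the threshold with normexp background correction. Over all genes 20.4% passed this test.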

How the results depend on the processing

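The counts of CDK inhibitors called stayed within 1.5 times their main value under all 27 settings tried, and leaving out 1 array at a time gave 2 to 3 called for the hairpin in untreated cells, 3 to 5 for the hairpin after retinoic acid, 7 to 8 and 7 for retinoic acid in shCTR and sh4, and 4 for the interaction. For single genes, 1120 results counted as the same. These were fits that kept direction and side of the threshold, and untested within-slide values less than 1 SD from the main change. Among the fits 29 lost and 9 gained a call and 9 turned sign, and 41 within-slide values moved by over 1 SD. Within-slide values of differences not called were not checked for sign. Some turned, as for the hairpin difference of Cdkn1a in untreated cells on slide 4 (0.0085 against −0.07). The 9 sign turns among the fits were all in differences not called with all arrays. In untreated cells the hairpin difference of Cdkn1a became 0.18 with the mean of its probes and ranged from −0.15 to 0.0094 (without sh4 replicate 2) over the fits that left out 1 array, and that of Cdkn1c from −0.015 (without shCTR replicate 1) to 0.11. After retinoic acid that of Cdkn2d ranged from −0.054 to 0.0034 (without sh4 replicate 4). The interaction of Cdkn2b became −0.059 with the mean of its probes, and −0.59 without the arrays rated for evaluation, and ranged from −0.40 (without sh4 replicate 3) to 0.47. That of Cdkn3 became 0.0046 without the rated arrays and ranged from −0.16 to 0.00048 (without shCTR replicate 1); the cause was not tested. Whether the replicate number pairs the samples could not be settled. As a block it called 4, 4, 8, 7 and 4 of the 8 genes in the 5 comparisons, and it moved 1 call, Cdkn2d in untreated cells (−0.24, adjusted p = 0.0307). Over all genes that block called 8159, 6306, 16749, 15638 and 6012, more than the main fit in each comparison. With arrays scaled to their medians, 6286, 4573, 16391, 15233 and 4308 genes were called, against 7157, 5326, 15677, 14734 and 5129. Cdkn2c, whose size changed with the background correction, was read at a low signal.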
